A study of Mus musculus with 42 samples.

Results

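The fibroblast growth factor (FGF) genes described here are 7 ligands, Fgf1, Fgf2, Fgf7, Fgf9, Fgf10, Fgf16 and Fgf18, and 3 receptors, Fgfr1, Fgfr2 and Fgfr3. A gene was taken in when a probe set of the array had it as its single symbol in the platform annotation, which gave 10 genes of 19938, each with 1 probe set. Several of them were listed because earlier results of these arrays had shown them, in 3 comparisons: uterus AKO with uterus WT, uterus AKDH with uterus WT, and WT oviduct with WT uterus. In those 3 comparisons, and in those of DKO or AKDH uterus with AKO uterus and of the AKO effect between oviduct and uterus, which rest on the same values, the values are a description, with no test. AKO oviduct with AKO uterus also uses those AKO uterus arrays. Its tests are kept with that limit, and Fgf16 there is a description.

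The study ran 42 Affymetrix arrays, which read whole transcripts, on adult mouse reproductive tract, in 14 groups of 3. All mice, WT included, had a mixed CD1/129 background and were 3 to 7 months old, and females were in diestrus, the resting stage of the cycle. AKO mice were Hoxa9,10,11-/-, DKO mice Hoxd9,10,11-/-, AKDH mice Hoxa9,10,11-/-d9,10,11+/- and AHDK mice Hoxa9,10,11+/-d9,10,11-/-. These are germline mutations, present in every tissue from the embryo onward, so adult values do not separate an effect of development from one in the adult. Oviduct and caudal epididymis were sampled in AKO and WT, and uterus and vas deferens (vas below) in AKO, DKO, AKDH, AHDK and WT. The arrays of a group are biological replicates per the labels.

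FGF ligands are secreted proteins that bind heparan sulfate at the cell surface and activate receptor tyrosine kinases. The signal runs through adaptors such as Frs2 and Grb2 to the RAS and MAP kinase cascade, switches on transcription factors such as Etv4 and Etv5, and is damped by the Sprouty, Spred and Dusp feedback inhibitors it induces. In tubular organs Fgf7 and Fgf10 are classically made by the mesenchyme and act on the epithelium through a splice form of Fgfr2, whereas Fgf9 is classically an epithelial signal to the mesenchyme. In mouse uterus, stromal FGFs are known to drive the epithelium to divide under oestrogen. The Hoxa9 to Hoxa11 and Hoxd9 to Hoxd11 genes pattern the tube from oviduct to uterus and from epididymis to vas. A gene-level probe set cannot tell the splice forms of the receptors apart.

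The 250 bases before a RefSeq transcript start are shown for 4 members that the results turn on (GRCm38.p6, read 5′ to 3′ on the gene's strand): Fgf18, called in uterus, Fgf10 and Fgfr2, lower in epididymis than in vas, and Fgf9, called in vas. Capitals mark TTTAT or its reverse complement ATAAA, the core that posterior Hox proteins prefer in vitro.
Fgf18 (chr11:33147401-33147650, minus strand): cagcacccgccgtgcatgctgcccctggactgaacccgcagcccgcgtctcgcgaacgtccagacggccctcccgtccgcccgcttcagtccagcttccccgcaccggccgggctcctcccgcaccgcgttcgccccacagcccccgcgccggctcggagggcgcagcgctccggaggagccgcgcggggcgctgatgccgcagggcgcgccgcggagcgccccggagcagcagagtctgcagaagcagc
Fgf10 (chr13:118714449-118714698, plus strand): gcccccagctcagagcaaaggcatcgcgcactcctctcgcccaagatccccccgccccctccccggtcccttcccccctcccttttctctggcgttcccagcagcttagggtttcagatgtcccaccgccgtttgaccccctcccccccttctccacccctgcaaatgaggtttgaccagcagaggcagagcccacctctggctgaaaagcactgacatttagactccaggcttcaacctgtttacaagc
Fgf9 (chr14:58072436-58072685, plus strand): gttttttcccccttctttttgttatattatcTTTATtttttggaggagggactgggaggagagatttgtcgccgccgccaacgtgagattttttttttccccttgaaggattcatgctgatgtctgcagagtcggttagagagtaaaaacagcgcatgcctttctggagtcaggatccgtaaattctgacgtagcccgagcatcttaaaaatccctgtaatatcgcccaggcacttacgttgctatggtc
Fgfr2 (chr7:130266809-130267058, minus strand): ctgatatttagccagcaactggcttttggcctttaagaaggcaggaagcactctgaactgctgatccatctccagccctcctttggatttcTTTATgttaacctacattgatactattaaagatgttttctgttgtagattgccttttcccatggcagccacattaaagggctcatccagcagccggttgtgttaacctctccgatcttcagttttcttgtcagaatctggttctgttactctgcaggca
The Fgf18, Fgf10 and Fgfr2 windows end where the gene begins, while the Fgf9 window lies inside the span RefSeq gives that gene (chr14:58070671-58112854), before a start within it. The core stood once in the Fgf9 window, 219 bases before that inner start, and once in the Fgfr2 window, 159 bases before the gene start. No match was present in the Fgf18 and Fgf10 windows, which says only that these letters are absent there. RefSeq windows were at hand for 7 members, of which Fgfr3 had more than 1, and 4 of these 8 windows held the core, against 37.3% of 32851 promoter windows of the same length. GC content was 77.2% for Fgf18, 61.2% for Fgf10, 44.8% for Fgf9 and 44.0% for Fgfr2. Fgf1, Fgf16 and Fgfr1 are named without a sequence.

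The deposited values are logs, taken here as log2, and had been centred: for each probe set the middle value is exactly 0 among the 21 females and likewise among the 21 males. A value of 1 is therefore 1 log2 unit above the middle array of that sex, and levels cannot be compared between genes or between females and males. A gene was called at a limma p below 0.05 after Benjamini-Hochberg adjustment over all 19938 genes, and SE below is that of the fitted difference. The number of arrays, 3 a group, limits the precision, and since these are whole tissues, fewer cells of a type and less RNA per cell cannot be told apart. Among the targeted genes, Hoxa11 was -1.59 to 0.67 in AKO and AKDH uterus against 1.23 to 2.75 in WT uterus, and -0.84 to -0.37 in AKO and AKDH vas against 0.43 to 1.38 in WT vas. It was -0.80 to -0.63 in AKO epididymis against -0.01 to 0.76 in WT, but overlapped in oviduct (-2.10 to -1.69 in AKO, -1.99 to -0.77 in WT). Hoxd9 was -0.86 to -0.56 in DKO and AHDK vas against -0.26 to -0.13 in WT vas, but overlapped in uterus (0.00 to 0.32 in DKO and AHDK, -0.10 to 0.50 in WT), where it checks no label. Of the other targeted genes, Hoxa9 was higher in AKO vas (0.08 to 0.34) than in WT vas (-0.32 to 0.00), Hoxd10 was not lower in DKO uterus (0.20 to 0.51, against 0.05 to 0.31 in WT), and Hoxd11 overlapped between DKO and WT in uterus and vas. Hoxa10 was lower without overlap in AKO uterus (-1.19 to 0.08, against 0.31 to 0.85 in WT) but overlapped in AKO vas. Which part of each gene the mutations remove and the probes read is not stated in the labels used here. Oviduct markers lay at 4.71 to 5.20 in oviduct and at -0.25 to 0.19 in uterus, and caudal epididymis markers at 2.34 to 3.83 in epididymis, against -2.24 to -1.62 in WT vas. The vas markers, 2 of 3 measured, were at 2.27 to 2.64 in WT vas but at -0.57 to 0.22 in AKO vas and -0.77 to -0.43 in AKDH vas. The caudal epididymis markers, 4 of 4 measured, were at -0.10 to 0.16 in AKO vas, -0.05 to 0.64 in AKDH vas and -1.39 to -0.52 in AHDK vas, all above WT vas. Of these 4 genes 2 were called higher in AKO vas, 3 in AKDH vas, with 1 lower, and 1 in AHDK vas. The part of these markers in the values of vas was not tested.

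Of the 42 libraries, 3 were taken as standing apart, and the members' differences and calls that rest on them are also given without them. The library labelled oviduct WT replicate 2 had Xist at -5.92 and the Y-linked Eif2s3y at 2.09 and Uty at 1.77. These 3 genes go against its female label. Its ovary markers were at 3.21, where the other WT oviduct arrays had 0.84 and 0.14. Oviduct markers were high in all WT oviduct arrays (4.71 to 5.20), this library included. In the library labelled epididymis AKO replicate 1, the difference from the other arrays of its group had an SD over genes of 0.42 to 0.43, while those arrays differed from each other by 0.19. In the library labelled vas AKDH replicate 3 this SD was 0.49 to 0.52, against 0.26 between the other arrays. Some arrays outside these 3 also differed more from their group than its other arrays did from each other. Among them were oviduct AKO replicate 3 (0.29 to 0.30, against 0.16) and uterus WT replicate 1 (0.43 to 0.47, against 0.34). Such arrays were left out only where each array was left out in turn.

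In uterus the calls against WT fell on the ligands Fgf18, in DKO and AHDK, and Fgf2, in AHDK, and no receptor was called in a tested comparison. Fgf18, a ligand of the FGF8 subfamily best known from bone and lung, was lowest in WT and highest in the mutants that lack both Hoxa copies. It was 0.13, 0.14 and 0.31 in AKO, 0.50, 0.23 and 0.08 in AKDH, -0.45, -0.30 and -0.70 in DKO and -0.59, -0.44 and -0.45 in AHDK, against -1.35, -1.00 and -1.00 in WT. All 12 mutant arrays lay above the WT arrays, and the AKO and AKDH arrays lay above those of DKO and AHDK. DKO uterus exceeded WT by 0.64 (SE 0.13, limma adjusted p = 0.0475), and AHDK by 0.63 (SE 0.13, adjusted p = 0.0276). The described differences, with no test, were 1.31 for AKO and 1.39 for AKDH. The 4 comparisons share the 3 WT arrays. Since these arrays also entered the comparisons for which members were listed, the p-values of DKO and AHDK against WT lean towards a call for Fgf18 and Fgf2. These calls are given with that limit and are not independent of the listing.

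The background rate of calls differed widely between the uterine comparisons. Against WT, 1 of 10 members was called in DKO, where 0.973% of all genes were, and 2 of 10 in AHDK, where 3.53% were. Both counts use the WT arrays that entered the listing of members, so nothing is read from them beside these shares. The arrays did not overlap WT for 3 members in DKO and 4 in AHDK, beside 20.9% and 29.6% of all genes. In AKO and AKDH, described with no test, this held for 5 members each, beside 12.8% and 26.7%. In the described comparisons the same threshold was passed by 2 members in AKO (0.0903% of all genes) and by 4 in AKDH (6.58% of all genes), and nothing is read from these counts. The Fgf18 call in DKO was lost without any 1 of the 6 arrays (differences 0.52 to 0.74, highest adjusted p 0.124). In AHDK it was lost without WT replicate 1 or 3 or any AHDK replicate (0.51 to 0.68, highest adjusted p 0.0956). After quantile normalisation the difference was 0.40 in DKO (adjusted p = 0.206) and 0.34 in AHDK (adjusted p = 0.160), neither called. With only DKO and WT uterus in the fit, 0 genes in all were called, so Fgf18 was not called there.

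**Figure D1:**
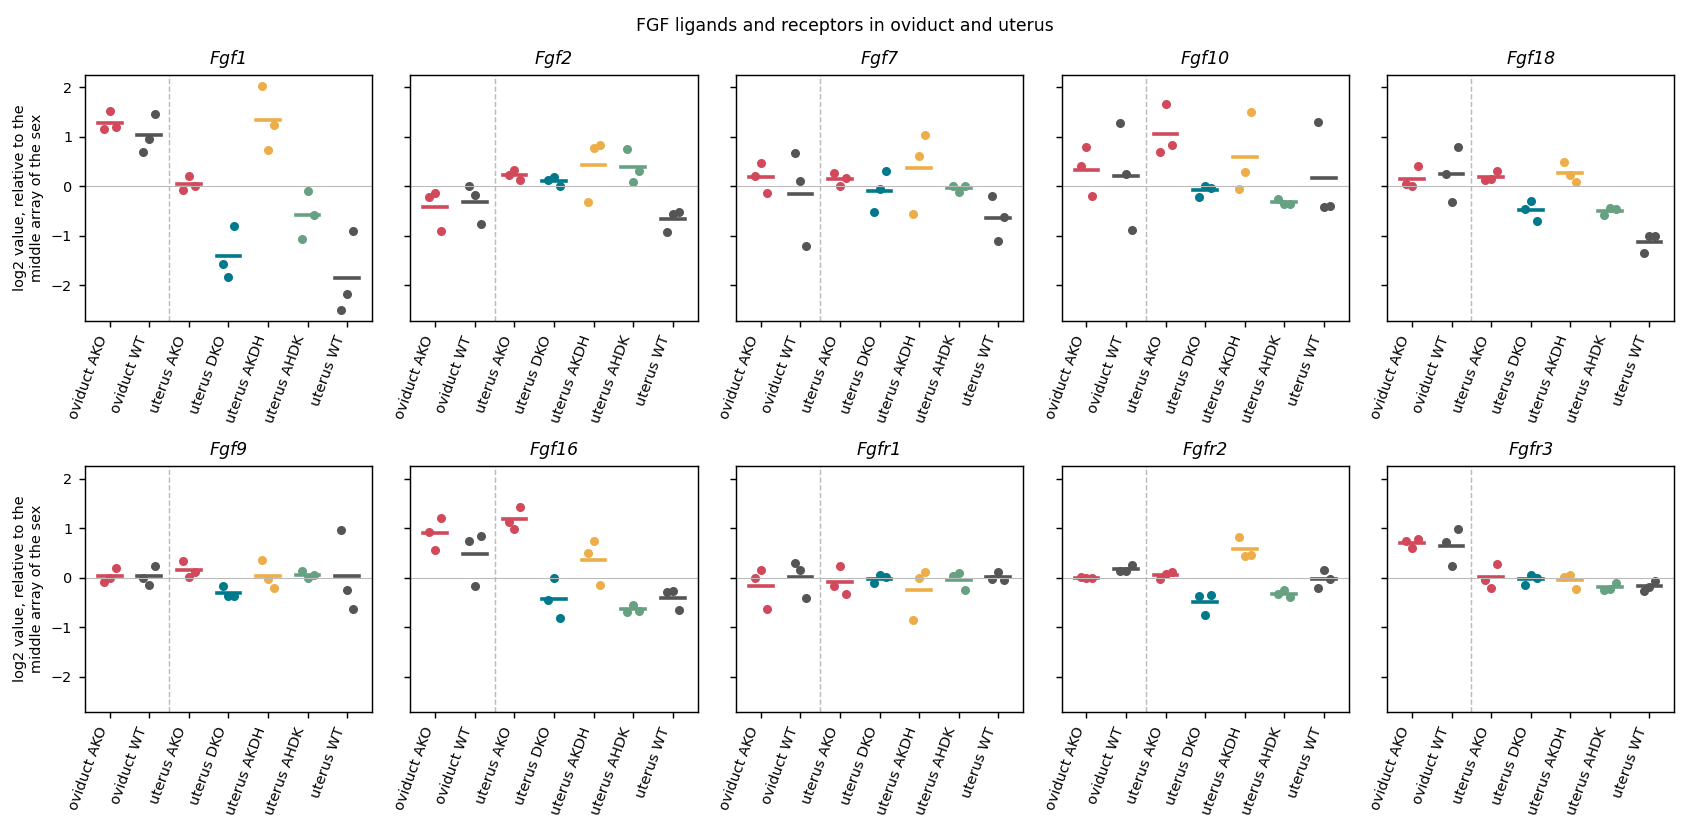
Each panel is a gene, the vertical axis is its log2 value relative to the middle female array, points are single arrays and bars are group means; the dashed line separates oviduct from uterus. Fgf18 and Fgf1 are lowest in WT uterus, Fgfr3 is highest in oviduct, and Fgf16 stands high in AKO uterus at 0.99 to 1.42.

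Fgf1, a ligand that binds every FGF receptor and lacks a classical secretion signal, had the widest range of the members in uterus. It was 2.03, 0.72 and 1.23 in AKDH, -0.08, 0.21 and 0.00 in AKO, -1.07, -0.09 and -0.59 in AHDK and -1.57, -1.83 and -0.81 in DKO, against -2.50, -2.19 and -0.91 in WT. The order of means was AKDH, AKO, AHDK, DKO and WT, and of neighbours in that order AKDH did not overlap AKO, AKO lay just above AHDK, and the others overlapped. AKDH exceeded WT by 3.19 and AKO by 1.91, described with no test. Neither AHDK (1.28, SE 0.43, adjusted p = 0.118) nor DKO (0.46, SE 0.43, adjusted p = 0.677) was called. AKDH exceeded AKO by 1.28, described with no test, in a comparison where limma called 0 genes in all and 2063 had an unadjusted p below 0.05.

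Fgf2, the other FGF1 subfamily ligand and a mitogen of stroma and vessels, was higher in AHDK. Its values were 0.74, 0.09 and 0.31 in AHDK, -0.32, 0.77 and 0.83 in AKDH, 0.23, 0.33 and 0.13 in AKO and 0.12, 0.18 and 0.00 in DKO, against -0.92, -0.56 and -0.53 in WT. Every mutant array lay above every WT array, with AKDH replicate 1 the nearest. AHDK exceeded WT by 1.05 (SE 0.26, adjusted p = 0.0488), a call lost without any 1 of the 6 arrays (0.87 to 1.20, highest adjusted p 0.206) and under quantile normalisation (0.85, adjusted p = 0.107). The described difference of AKDH was 1.09, and AKO (0.90) and DKO (0.77, SE 0.26, adjusted p = 0.180) did not pass the threshold.

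Fgf16, an FGF9 subfamily ligand known from heart and inner ear, was highest in AKO uterus. It was 1.13, 0.99 and 1.42 in AKO and 0.50, 0.74 and -0.15 in AKDH, -0.45, 0.00 and -0.82 in DKO and -0.69, -0.56 and -0.67 in AHDK, against -0.30, -0.26 and -0.65 in WT. AKO stood above all other uterine arrays, while AKDH overlapped DKO, and DKO and AHDK overlapped WT. AKO minus WT was 1.58 and AKDH minus WT 0.77. DKO minus AKO was -1.60 (-1.81 to -1.40 without each array in turn) and AKDH minus AKO -0.82. All 4 are descriptions, since Fgf16 was listed for its level in these AKO arrays. In DKO minus AKO it was the single member of 10 past the threshold, beside 0.186% of all genes, and nothing is read from this count.

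The stromal ligands Fgf7 and Fgf10 and the epithelial ligand Fgf9 were not called in any tested uterine comparison. Fgf7 was -0.56 to 1.03 over the mutants and -1.11 to -0.20 in WT. Fgf10 was 0.69 to 1.65 in AKO and -0.36 to 0.00 over DKO and AHDK, while WT itself ran from -0.42 to 1.30. For Fgf9 too, WT spread more than any mutant, from -0.63 to 0.96. DKO minus AKO was -1.14 for Fgf10, described with no test.

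Fgfr2, the receptor whose epithelial form answers Fgf7 and Fgf10, was the receptor with the widest differences in uterus. It was 0.83, 0.43 and 0.45 in AKDH, -0.03, 0.07 and 0.12 in AKO, -0.33, -0.26 and -0.40 in AHDK and -0.38, -0.75 and -0.36 in DKO, against -0.22, 0.16 and -0.04 in WT. AKDH lay above and DKO and AHDK below the WT arrays. The described difference of AKDH was 0.60, DKO minus WT was -0.46 (95% interval -0.75 to -0.17, adjusted p = 0.121) and AHDK minus WT was -0.30 (adjusted p = 0.222). Fgfr1, the main mesenchymal receptor, differed from WT by -0.26 to -0.03 over the 4 mutants, and Fgfr3 by -0.02 to 0.18.

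Other signals moved with these differences, and their part in the results was not tested. Small nuclear and nucleolar RNA genes, used as a sign of RNA quality (61 of 61 measured), had a mean of 0.00 to 0.47 in AKO uterus, -0.12 to 0.15 in DKO uterus, -0.45 to -0.20 in AKDH uterus and -0.25 to 0.21 in AHDK uterus, against 0.54 to 0.97 in WT uterus, so no mutant array reached the WT range. With that mean as a covariate no member was called in uterus. Over all genes this fit called 9 in AKO and 0 in DKO, AKDH and AHDK, so nothing about the members is read from their lost calls. Fgf18 then differed by 1.28 in AKO, 1.31 in AKDH, 0.59 in DKO and 0.57 in AHDK, and Fgf2 in AHDK by 0.36. Mesothelial markers (4 of 4 measured) had a mean of -0.21 to 0.26 in AKO, -0.45 to 0.39 in AKDH, -0.93 to -0.13 in DKO and -0.49 to -0.06 in AHDK, against -1.42 to -0.23 in WT. Leukocyte markers, 6 of 6 measured, gave 4 calls, all higher, in AHDK and 2 in DKO, and adipocyte markers, 7 of 8 measured, gave 0 calls in any uterine mutant.

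**Figure D2:**
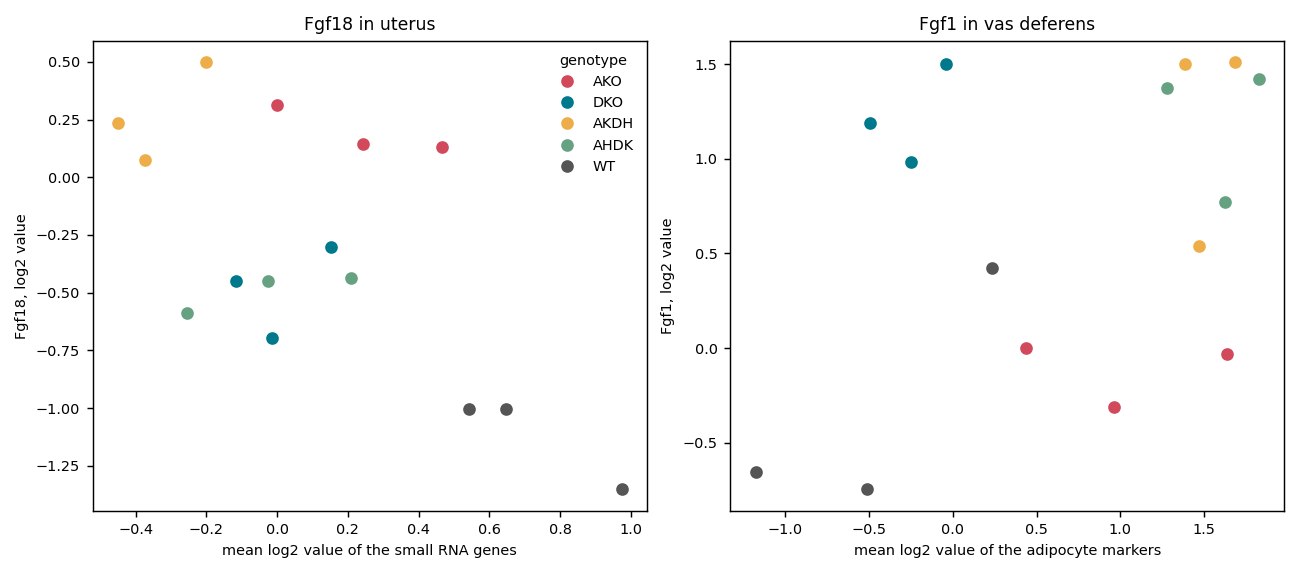
The left panel sets the log2 value of Fgf18 in the 15 uterus arrays against their mean log2 value of small RNA genes; the right panel sets that of Fgf1 in the 15 vas arrays against the mean of the adipocyte markers; each point is an array. In uterus the WT arrays lie at the right and low, and in vas the AKO arrays lie at 0.44 to 1.64 for the markers and at -0.31 to 0.00 for Fgf1.

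In vas Fgf1 rose in DKO, AKDH and AHDK, and in AKDH Fgfr3 also rose while Fgf9 and Fgfr2 fell. Fgf1 was 1.51, 1.50 and 0.54 in AKDH, 1.50, 1.19 and 0.98 in DKO, 0.77, 1.42 and 1.37 in AHDK and -0.31, 0.00 and -0.03 in AKO, against -0.66, -0.75 and 0.42 in WT. The arrays of DKO, AKDH and AHDK all lay above WT, and those of AKO lay within the WT range. DKO exceeded WT by 1.55 (SE 0.33, adjusted p = 0.0225), AKDH by 1.51 (SE 0.33, adjusted p = 0.00663) and AHDK by 1.51 (SE 0.33, adjusted p = 0.0255). AKO minus WT was 0.21 (95% interval -0.50 to 0.93, adjusted p = 0.779). These comparisons share the 3 WT vas arrays, of which replicate 3 lay well above the other WT arrays.

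Against WT, 1 of 10 members was called in DKO vas and 1 in AHDK vas, where 5.87% and 4.15% of all genes were called. In AKDH vas 4 of 10 were called, against 24.3% of all genes, and in AKO vas 0 of 10, against 9.35%. The AKDH count thus stands beside a high background, and with 10 members, counts of 1 and 0 are close to the other shares. The arrays did not overlap WT for 4 members in DKO vas and 4 in AKDH vas, beside 30% and 41.5% of all genes. In AHDK and AKO vas this held for 2 and 1, beside 21.5% and 33.1%. In AKO vas 1 member, Fgfr2, had an unadjusted limma p below 0.05 (-0.28, adjusted p = 0.0819), and it was called with only these groups in the fit (adjusted p = 0.0304). The Fgf1 call in AKDH held without each array in turn (1.30 to 1.88). In DKO it was lost without WT replicate 1 or 2 or any DKO replicate (1.34 to 1.93, highest adjusted p 0.0955), and in AHDK without WT replicate 1 or 2 or AHDK replicate 2 or 3 (1.30 to 1.89, highest adjusted p 0.110). Without the vas AKDH library that stood apart, the difference was 1.83 in AKDH (adjusted p = 0.00244). With only the groups compared in each fit, 2 members were called in vas against WT, Fgfr2 in AKO being 1 of them. Most calls in DKO, AKDH and AHDK vas were thus not made in that fit. In AHDK vas it called 0 genes in all, so Fgf1 was not called there. Fgf1 in AHDK was also not called with the replicate number as a block.

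The other 3 calls were in AKDH vas. Fgfr2 was -0.11, -0.43 and -0.06 in AKDH, below 0.32, 0.22 and 0.25 in WT, and the groups did not overlap. It fell by 0.47 (-0.47, SE 0.09, adjusted p = 0.00368), and by 0.54 (-0.54, adjusted p = 0.00293) without the library that stood apart. Fgfr3, a receptor with a known role in limiting bone growth, was 0.40, 0.05 and 0.10 in AKDH, above -0.10, -0.28 and -0.21 in WT. It rose by 0.38 (SE 0.09, adjusted p = 0.0123), and by 0.42 (adjusted p = 0.0150) without the library that stood apart, and the call was lost without WT replicate 2 (0.28, adjusted p = 0.0538). Fgf9 was -0.25, -0.26 and -0.47 in AKDH, below -0.08, 0.32 and 0.53 in WT. It fell by 0.58 (-0.58, SE 0.17, adjusted p = 0.0247), which was not called without the library that stood apart (-0.51, adjusted p = 0.0674), without WT replicate 2 or 3 (highest adjusted p 0.0879) or after quantile normalisation (-0.55, adjusted p = 0.0839). Fgf16, not called with all arrays (-0.18, adjusted p = 0.157), was called without that library (-0.27, adjusted p = 0.0464).

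**Figure D3:**
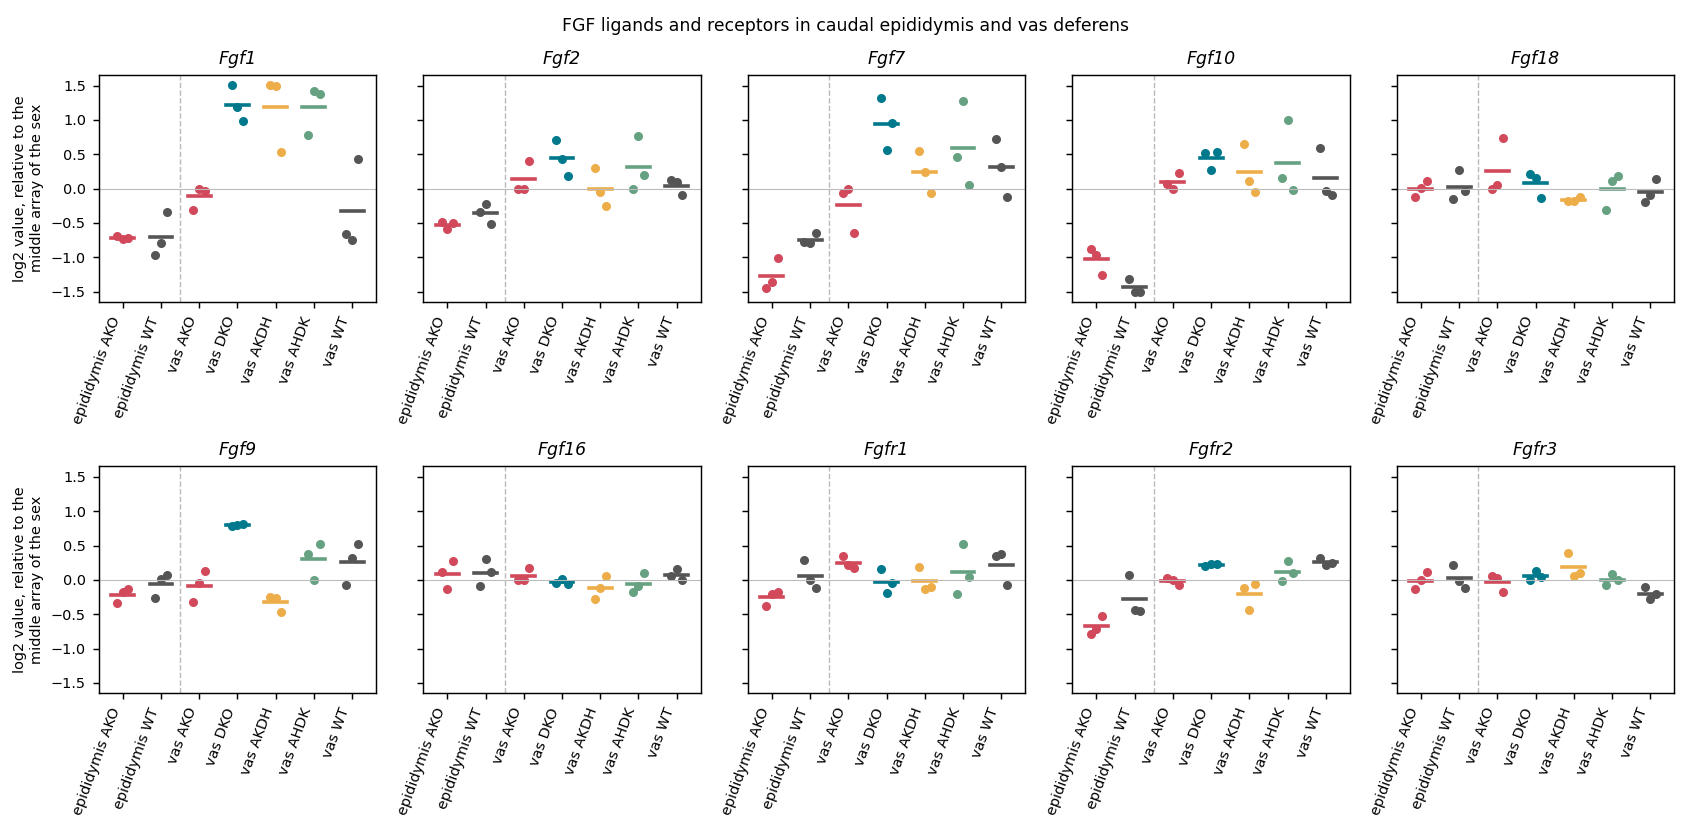
Each panel is a gene, the vertical axis is its log2 value relative to the middle male array, points are single arrays and bars are group means; the dashed line separates epididymis from vas. Fgf1 is high in DKO, AKDH and AHDK vas, Fgf9 is tightest and highest in DKO vas at 0.78 to 0.81, and Fgf10 and Fgf7 are low in epididymis.

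Within vas the Hoxd and Hoxa mutants were also compared with each other. In DKO minus AKO 3 of 10 members were called, all higher in DKO, where 17.8% of all genes were called and 11.4% were called higher. Fgf9 was 0.78, 0.80 and 0.81 in DKO, against -0.32, -0.05 and 0.13 in AKO, a difference of 0.88 (SE 0.17, adjusted p = 0.00380) that held without each array in turn (0.76 to 0.99). Fgf1 differed by 1.34 (SE 0.33, adjusted p = 0.0158), lost without AKO replicate 1 or DKO replicate 1 (highest adjusted p 0.0650). Fgf7 was 1.31, 0.56 and 0.96 in DKO, against -0.06, 0.00 and -0.65 in AKO, a difference of 1.18 (SE 0.32, adjusted p = 0.0256) lost without AKO replicate 1 or 3 or DKO replicate 1 or 3 (highest adjusted p 0.103). Against WT, neither Fgf9 (0.54 in DKO, adjusted p = 0.0780, and -0.34 in AKO, adjusted p = 0.249) nor Fgf7 (0.64 and -0.54, adjusted p = 0.297 and 0.355) was called.

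AKDH, which lacks 1 Hoxd copy that AKO has, gave no called member against AKO in vas by limma (1.29% of all genes called), with 3 members at an unadjusted p below 0.05. Fgf1 in AKDH minus AKO was 1.30 (SE 0.33, adjusted p = 0.0833), or 1.62 (adjusted p = 0.0372) without the library that stood apart. AHDK, which lacks 1 Hoxa copy that DKO has, gave none against DKO in vas (0.366% of all genes called, 1 member at an unadjusted p below 0.05) or in uterus (0.0251%, 0 members). Fgf1 in AHDK minus DKO vas was -0.04, with a 95% interval from -0.75 to 0.68.

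Fat and muscle markers moved with genotype in vas, and their part in the results was not tested. The mean of 7 measured adipocyte markers was 1.39 to 1.68 in AKDH, 1.28 to 1.83 in AHDK, 0.44 to 1.64 in AKO and -0.49 to -0.04 in DKO, against -1.18 to 0.23 in WT. With the adipocyte mean as a covariate the DKO call of Fgf1 held (1.45, adjusted p = 0.0324) and no other member was called (Fgf1 0.65 in AKDH and 0.63 in AHDK). Over all genes this fit called 785 in DKO, 347 in AKO, 431 in AKDH and 0 in AHDK. Without the covariate these were 1170, 1865, 4849 and 827. The lost calls in AKDH and AHDK are therefore not read as particular to the members. Smooth muscle markers, 8 of 8 measured, had a mean of -0.36 to 0.09 in AKO and -0.40 to -0.07 in AKDH, against 0.23 to 0.68 in WT, and were 0.48 to 0.73 in DKO. Sperm markers, 6 of 6 measured, had a mean of -1.18 to -0.87 in AKO and -1.24 to 0.21 in AKDH, against 0.16 to 0.83 in WT.

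**Figure D4:**
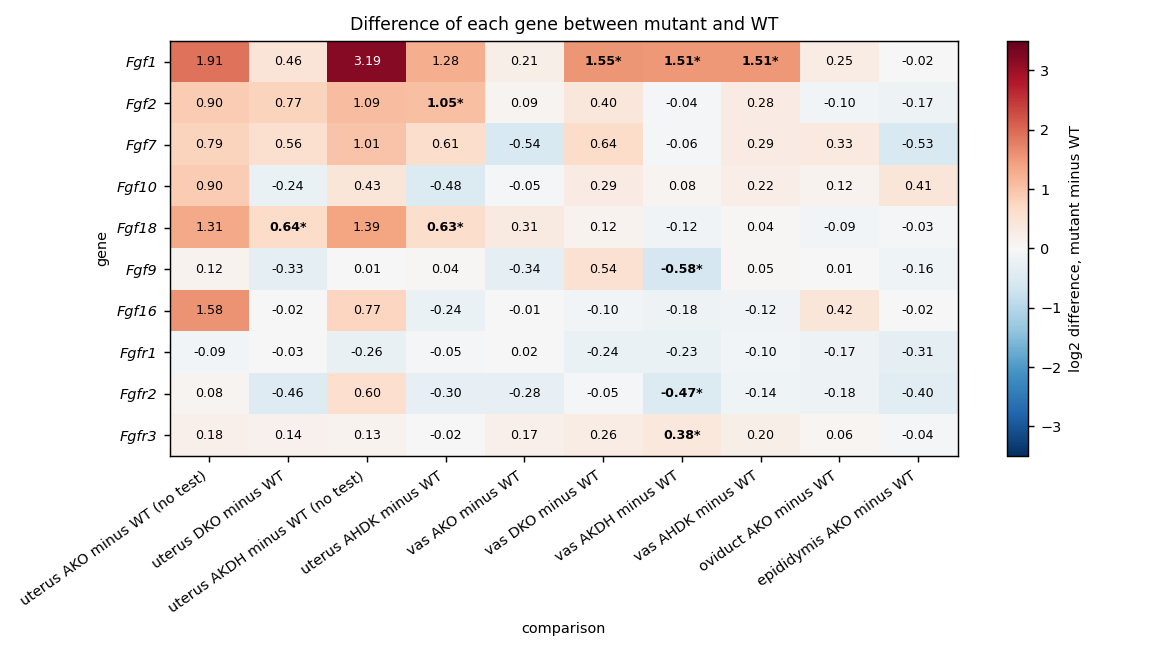
Cells give the log2 difference between mutant and WT for each of the 10 genes (rows) in the 10 comparisons with WT (columns); colour runs from blue (lower in the mutant) to red (higher), and a star marks an adjusted p below 0.05 where a test was made. Fgf1 reaches 3.19 in AKDH uterus and 1.51 to 1.55 in the 3 called vas comparisons, and Fgfr2 is 0.60 in AKDH uterus but -0.47 in AKDH vas.

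No member passed the threshold between AKO and WT in oviduct or in caudal epididymis. In oviduct AKO minus WT 0 of 10 members and 0 genes in all were called by limma, with 609 genes at an unadjusted p below 0.05, among them Fgfr2 (-0.18). Fgf1 was 1.15, 1.51 and 1.20 in AKO oviduct and 0.70, 0.95 and 1.46 in WT oviduct (difference 0.25, 95% interval -0.26 to 0.77). Fgf18 was 0.05, 0.00 and 0.40 in AKO oviduct and 0.25, -0.33 and 0.79 in WT oviduct (difference -0.09, interval -0.79 to 0.61). Without oviduct WT replicate 2 the differences were 0.21 for Fgf1, -0.37 for Fgf18 and -0.20 for Fgfr2, none called. In epididymis AKO minus WT 0 of 10 were called, where 0.782% of all genes were, and 4 members had an unadjusted p below 0.05: Fgf7 (-0.53), Fgf10 (0.41), Fgfr1 (-0.31) and Fgfr2 (-0.40). Without epididymis AKO replicate 1 these were -0.45, 0.33, -0.25 and -0.34, none called. The AKO and WT arrays did not overlap in 4 of 10 members, beside 22.1% of all genes. Fgf7 was -1.45, -1.36 and -1.02 in AKO epididymis, below -0.77, -0.80 and -0.65 in WT epididymis (adjusted p = 0.116), and Fgf10 was -0.87, -0.96 and -1.26 in AKO, above -1.32, -1.50 and -1.50 in WT (adjusted p = 0.175). Both ligands are known mesenchymal signals of the male duct, and here they differed in opposite directions without passing the test. Smooth muscle markers were -1.77 to -1.17 in AKO epididymis against -0.79 to -0.14 in WT, and stromal markers, 6 of 6 measured, -0.47 to -0.34 against -0.31 to 0.30. Sperm markers were -1.00 to -0.74 in AKO epididymis against 2.21 to 3.56 in WT, with 3 of 6 called lower, and caudal epididymis markers, 4 of 4 measured, 2.34 to 2.75 against 3.53 to 3.83. The part of these markers was not tested.

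Between the tissues of the male tract, the epithelial-acting ligands and their receptor were lower in epididymis than in vas. In WT, Fgf10 was -1.32, -1.50 and -1.50 in epididymis, against 0.59, -0.04 and -0.09 in vas, a difference of -1.59 (SE 0.24, adjusted p = 8.0e-05). Fgf7 was -0.77, -0.80 and -0.65 in epididymis, against 0.73, 0.32 and -0.12 in vas (-1.05, SE 0.29, adjusted p = 0.0111). Fgfr2 was 0.07, -0.45 and -0.46 in epididymis, against 0.32, 0.22 and 0.25 in vas (-0.54, SE 0.12, adjusted p = 0.00331). None of the 3 genes overlapped between the tissues. Over the members, 4 of 10 did not overlap, beside 43.7% of all genes. These 3 of 10 calls stand beside 28.1% of all genes called, so their number is at the background.

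In AKO these 3 genes and Fgf2 were called, where 15.5% of all genes were called. Fgf10 was -0.87, -0.96 and -1.26 in AKO epididymis, against 0.06, 0.00 and 0.23 in AKO vas (-1.13, SE 0.24, adjusted p = 0.00361). Fgf7 differed by -1.04 (SE 0.29, adjusted p = 0.0223), Fgfr2 by -0.66 (SE 0.12, adjusted p = 0.00173) and Fgf2 by -0.66 (SE 0.18, adjusted p = 0.0234). Every AKO epididymis array lay below every AKO vas array for these 4 genes. The Fgf10 and Fgfr2 calls held without each array in turn in both genotypes. The Fgf7 call was lost in WT without vas replicate 1 (-0.84, adjusted p = 0.0624) and in AKO without vas replicate 1 or 2 or epididymis replicate 1 or 2 (-1.24 to -0.92, highest adjusted p 0.0885), of which epididymis replicate 1 is the library that stood apart (-0.95, adjusted p = 0.0581 without it). Without that library Fgf10 (-1.21, adjusted p = 0.00538), Fgfr2 (-0.60, adjusted p = 0.00755) and Fgf2 (-0.68, adjusted p = 0.0345) were still called in AKO. After quantile normalisation Fgf7 was not called (-0.86, adjusted p = 0.0963 in WT, and -0.44, adjusted p = 0.448 in AKO), nor were Fgf2 (-0.54, adjusted p = 0.0534) and Fgfr2 (-0.43, adjusted p = 0.0555) in AKO. The Fgf2 call was also lost without vas replicate 3 or epididymis replicate 2 or 3 (-0.72 to -0.52, highest adjusted p 0.105).

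Arrays of vas and epididymis with the same genotype and replicate number deviated together, so the fit with this pairing as a block is given too. It added Fgf2 (-0.40, adjusted p = 0.0151) and Fgf9 (-0.32, adjusted p = 0.0210) in WT. In AKO it added Fgf1 (-0.60, adjusted p = 0.0354) and Fgfr1 (-0.50, adjusted p = 0.0224). All 4 were lower in epididymis. Smooth muscle markers were called lower in epididymis in 8 of 8 genes in WT and 7 of 8 in AKO, and adipocyte markers in 5 and in 7 of 7. Epithelial markers were called lower in 4 of 7 genes in WT and 3 in AKO, and stromal markers in 0 of 6 and 3. Sperm markers were called higher in epididymis in 6 of 6 genes in WT and 0 in AKO. The part of these cell types in the FGF differences was not tested.

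Between the tissues of the female tract Fgfr3 and Fgf1 were higher in oviduct. In AKO, Fgfr3 was 0.74, 0.60 and 0.78 in oviduct, against -0.05, -0.21 and 0.27 in uterus (0.70, SE 0.15, adjusted p = 0.00391), and the call held without each array in turn. Fgf1 was 1.15, 1.51 and 1.20 in AKO oviduct, against -0.08, 0.21 and 0.00 in AKO uterus (1.24, SE 0.40, adjusted p = 0.0400), a call lost without any 1 of the 6 arrays (1.13 to 1.33, highest adjusted p 0.116). The tissues did not overlap for either gene, and over the members 3 of 10 did not, beside 37.7% of all genes. The 2 of 10 members called stand beside 17.8% of all genes. Quantile normalisation left neither called (Fgfr3 0.44, adjusted p = 0.0531, and Fgf1 0.78, adjusted p = 0.117). Fgf16 in AKO oviduct minus AKO uterus was then -1.59, against -0.29 on the deposited values. Both Fgf16 values are descriptions with no test, since Fgf16 was listed for its level in these AKO uterus arrays. The tests of Fgfr3 and Fgf1 share these arrays. Same-numbered arrays of AKO oviduct and AKO uterus deviated together (correlations 0.161, 0.457 and 0.461). The SEs and p-values given here for these tests leave that pairing out. In WT, described with no test, Fgf1 was higher in oviduct by 2.90, Fgf18 by 1.36, Fgf16 by 0.88 and Fgfr3 by 0.82, and 4 of 10 members passed the threshold beside 23.9% of all genes. Without oviduct WT replicate 2 these differences were 2.94, 1.64, 1.20 and 1.03. Ciliated cell markers were 4.65 to 5.20 in oviduct and -0.14 to 0.10 in uterus, and mesothelial markers 0.75 to 0.90 in AKO oviduct against -0.21 to 0.26 in AKO uterus. Small RNA genes had a mean of -0.63 to 0.06 in WT oviduct against 0.54 to 0.97 in WT uterus, with 41 of 61 called lower. In AKO they were -0.45 to -0.03 in oviduct against 0.00 to 0.47 in uterus, with 12 of 61 called lower. The part of these markers and small RNA genes was not tested.

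**Figure D5:**
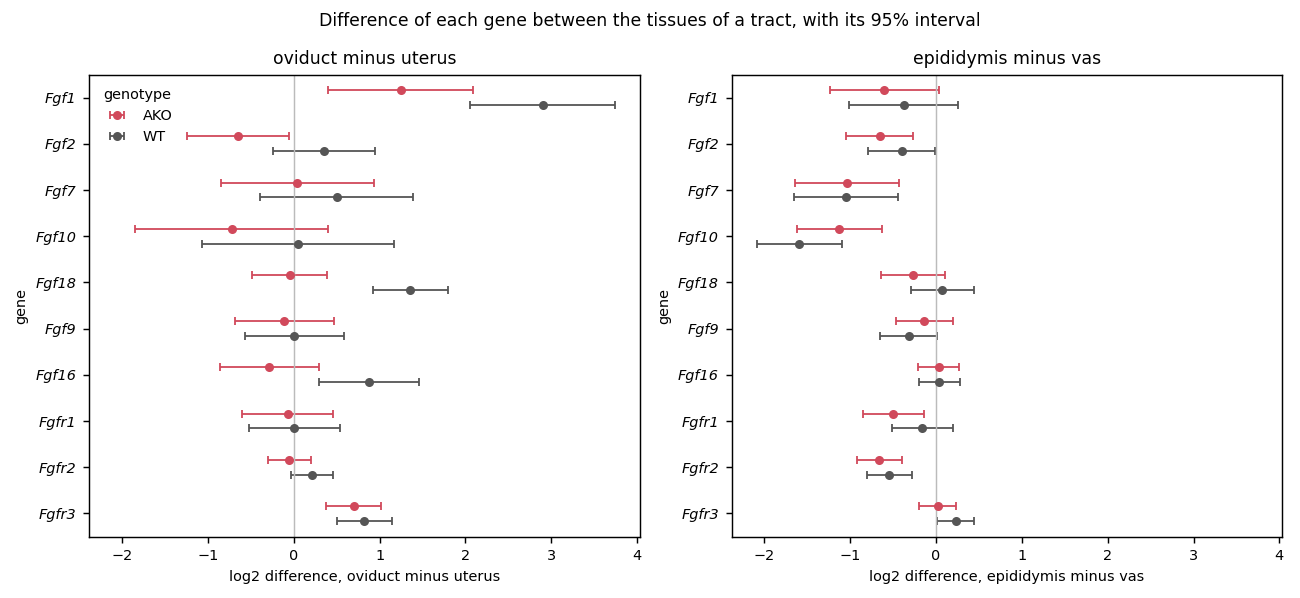
Points are log2 differences between the tissues of a tract for each gene, oviduct minus uterus at the left and epididymis minus vas at the right, with 95% intervals, in AKO (red, above) and WT (grey, below). Fgf18 lies at 1.36 in WT and at -0.05 in AKO on the left, and Fgf10, Fgf7 and Fgfr2 lie below 0 in both genotypes on the right.

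The effect of AKO was also compared between the tissues of a tract. In females the uterine side is a comparison for which members were listed, so the members' values are a description, and limma called 0 genes in all, with 847 at an unadjusted p below 0.05. The AKO effect on Fgf18 was -0.09 in oviduct and 1.31 in uterus, a difference of -1.40, or -1.69 without oviduct WT replicate 2. The difference was -1.66 for Fgf1, -1.16 for Fgf16 and -1.00 for Fgf2. In males 0 of 10 members were called, where 7.22% of all genes were, and the differences ran from -0.34 to 0.46.

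Of the other FGF pathway genes, 55 of 57 listed were measured, and the list was chosen from textbook knowledge with earlier results of these arrays known. No listed gene was called by limma in DKO uterus (5 at an unadjusted p below 0.05), and 2 were in AHDK, both higher, which is near the 3.53% of all genes called there: Dusp6, a phosphatase that damps ERK signalling (1.06, SE 0.21, adjusted p = 0.0237), and the immediate-early gene Fos (1.05, SE 0.26, adjusted p = 0.0490). The list's median difference was 0.02 in DKO and -0.02 in AHDK, against 0.01 and -0.02 over all genes. In the described comparisons 0 listed genes passed in AKO and 1 in AKDH, Flrt2, a membrane partner of FGF receptors (0.71).

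In vas the list gave 5 calls in AKO (4 higher, 1 lower), 3 in DKO (all higher), 13 in AKDH (7 higher, 6 lower) and 0 in AHDK (6 at an unadjusted limma p below 0.05). Of 55 genes these counts are near the 9.35%, 5.87% and 24.3% of all genes called in AKO, DKO and AKDH, so nothing particular to the list is read from them and the genes named below are examples. Dusp4, another MAP kinase phosphatase, was higher in AKO (0.61, SE 0.11, adjusted p = 0.00590), DKO (0.50, SE 0.11, adjusted p = 0.0290) and AKDH (1.10, SE 0.11, adjusted p = 8.9e-05). Fgf12, an intracellular FGF homologue that binds sodium channels, was higher in AKO (0.96, adjusted p = 0.00423) and AKDH (1.04, adjusted p = 0.00115). Myc, a growth-response transcription factor, was higher in AKO (0.74, adjusted p = 0.00793), as was the heparan sulfate sulfotransferase Hs2st1 (0.36, adjusted p = 0.0292). In DKO the intracellular homologue Fgf11 (0.45) and the adaptor Frs3 (0.19) were called higher, each at adjusted p = 0.0363. In AKDH the heparan sulfatase Sulf1 fell by 1.49 (-1.49, adjusted p = 0.00433) and the ligand Fgf22 by 0.30 (-0.30, adjusted p = 0.00470). The list's median was 0.01 in AKO, 0.06 in DKO and -0.06 in AKDH, against -0.02, 0.02 and -0.05 over all genes.

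In epididymis minus vas the whole list gave 14 calls of 55 in WT (5 higher, 9 lower) and 13 in AKO (4 higher, 9 lower), beside 28.1% and 15.5% of all genes. The ligand-binding and membrane modulators, 13 measured, gave 3 higher and 2 lower in WT and 2 higher and 2 lower in AKO. Of the feedback inhibitors, singled out after their values were seen, 5 of 11 were called lower in epididymis in WT and 5 of 11 in AKO. In either genotype 0 were called higher, but, called or not, 4 of 11 had a difference above 0 in WT and 1 in AKO. Of all genes, 16.8% were called lower in WT and 8.31% in AKO. Since the inhibitors were picked from these same values, nothing is read from their counts beside these shares. The inhibitors had median differences of -0.20 in WT and -0.46 in AKO against -0.01 and 0.02 over all genes. Spry4, a Sprouty inhibitor, differed by -0.93 in WT (SE 0.15, adjusted p = 0.000158). In WT the membrane partner Flrt3 was higher in epididymis by 1.29 (adjusted p = 3.0e-06), Fgf12 by 1.49 (adjusted p = 2.7e-05) and the heparan sulfatase Sulf2 by 1.18 (adjusted p = 0.000216). In AKO the FGF target Etv1 was lower in epididymis (-1.62, adjusted p = 9.9e-05), as was Myc (-0.95, adjusted p = 0.000274), and Fgf5, a ligand known from the hair cycle, was higher (0.48, adjusted p = 2.5e-05), as was Fgf12 (1.04, adjusted p = 0.00175). In AKO oviduct minus uterus 6 listed genes were higher and 5 lower, near the 17.8% of all genes called. The receptor antagonist Il17rd was higher by 1.48 (SE 0.22, adjusted p = 0.000133), the decoy receptor Fgfrl1 by 0.60 (adjusted p = 0.00575) and the sulfotransferase Hs6st2 by 0.83 (adjusted p = 0.00767), while the inhibitor Spred2 was lower (-0.64, adjusted p = 0.00307).

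Correlations between members describe arrays that share tissue, genotype groups and processing. Over the 15 uterus arrays, Fgf1 and Fgf18 had a Pearson r of 0.84, Fgf16 and Fgf18 of 0.74, and Fgf1 and Fgfr2 of 0.74. In vas the closest pairs were Fgf7 with Fgf10 (0.76) and Fgf2 with Fgf10 (0.75). The genes with the pattern most like that of Fgf18 in uterus were Radx (r = 0.95), Cnp (0.93), Pank3 (0.93), Akr1c13 (0.91) and Epb41l4a (0.91). Those most like Fgf1 in vas were Fubp3 (0.93), Ppp6r2 (0.93), Pex19 (0.92), Rpl38 (0.92) and Fbxl6 (0.92).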

How the data were processed

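The authors deposited 1 log value per probe set for 42 arrays, taken here as log2. What log base, summarisation and normalisation they used is not stated in these sources. RNA from fresh tissue (300 ng in all) was labelled with the Ambion WT Expression kit, per the labels' protocols. All 28856 deposited probe sets had a log2 median of exactly 0 over the 21 arrays of each sex, so differences within a sex keep their meaning and absolute levels are lost. Array medians ran from -0.0538 to 0.0371 and SDs over genes from 0.177 to 0.644.

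Of the probe sets, 21789 had 1 gene symbol, 1621 several and 5446 none. Those with 1 symbol were averaged to 19938 genes, and 21698 of them matched RefSeq (GRCm38.p6) by gene ID. Groups were compared with limma 3.58.1 (lmFit and eBayes) in R 4.3.3, with all arrays of the tissue in 1 fit (of the sex, where tissues were compared), with Benjamini-Hochberg adjustment over 19938 genes and a threshold of 0.05. The fitting code was tested on simulated data. Tables and plots used Python 3.11.15, pandas 2.3.3, numpy 2.4.6 and matplotlib 3.10.9. Alternatives were quantile normalisation, a fit of only the groups compared, the genes with an SD above the median, the probe set with the largest SD, a robust prior, the replicate number as a block, marker means as covariates, leaving out 3 libraries that stood apart, and leaving out each array.

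Members and lists were chosen with earlier results of these data known. All 10 members are named, with up to 4 called pathway genes a comparison with the smallest adjusted p, and the 5 genes most correlated with the member called most often against WT in uterus and in vas. Same-numbered arrays deviated together, with every correlation over 0.1, between uterus AKO and oviduct AKO (0.161, 0.457 and 0.461), oviduct AKO and oviduct WT (0.222, 0.289 and 0.480), epididymis WT and vas WT (0.287, 0.176 and 0.281) and epididymis AKO and vas AKO (0.143, 0.141 and 0.190). This pairing comes from the data, since the labels give only numbers.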

Additional observations from a re-analysis of the deposited data

Results flagged for a closer look

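Fgfr2 moved in opposite directions in the uterus and the vas of AKDH mice. In AKDH uterus all 3 arrays lay above the WT arrays, with a difference of 0.60, a described comparison with no test. In AKDH vas all 3 arrays lay below the WT arrays, with a difference of -0.47 (limma adjusted p = 0.00368). The difference between the tissues was not tested.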

How the results depend on the processing

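Calls of members in uterus mutants against WT, described comparisons included, numbered 9 in the main fit. They numbered 2 with only the groups compared in the fit, 0 with the small RNA mean as a covariate, and 3 to 11 without each array in turn. In vas they numbered 6, then 2 with only the groups compared, 1 with the adipocyte mean as a covariate, and 2 to 7 without each array. Each number counts all members called under that setting, so it can include calls that the main fit did not make. With only the groups compared, the vas number includes Fgfr2 in AKO, which the main fit did not call. The 13 between tissues, described values included, became 8 after quantile normalisation and ran from 11 to 14 without each array. The 4 between mutants, 1 of them described, ran from 2 to 5. The count for AKO against WT in oviduct and epididymis was 0 throughout, and that for the difference of the AKO effect was 0, or 1 (Fgf18 in females, a description) without the 3 libraries that stood apart, and 0 to 1 without each array. No member difference called in the main fit, or in an alternative other than leaving out each array, changed sign. Differences that were not called could change sign. Fgfr3 in oviduct, for example, had a mean of 0.70 in AKO and 0.64 in WT. Without oviduct WT replicate 2 its AKO minus WT difference was -0.14. Except where values stand beside a result, causes were not tested.

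With the replicate number as a block the counts were 7 in uterus, 5 in vas, 4 between mutants, 17 between tissues and 0 in the others. Where the numbers do not pair the arrays, the block took away Fgf18 in DKO uterus (adjusted p = 0.0646), Fgf2 in AHDK uterus (adjusted p = 0.0644) and Fgf1 in AHDK vas (adjusted p = 0.0529). With it, called genes were 9 in epididymis AKO against WT (156 without), 18 in uterus DKO against AKO (37), 4 in uterus AKDH against AKO (0), 141 in vas AKDH against AKO (258) and 18 in vas AHDK against DKO (73).

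Counts over all genes also moved. With only the groups compared in the fit, against WT, 1 gene was called in AKO uterus (18 with all groups), 0 in DKO uterus (194), 82 in AKDH uterus (1311), 2841 in AKDH vas (4849) and 0 in AHDK vas (827). Between mutants that fit called 1 in uterus AHDK against DKO (5), 1 in uterus DKO against AKO (37), 0 in vas AKDH against AKO (258) and 4 in vas AHDK against DKO (73), and 3058 in WT oviduct against uterus (4770). Quantile normalisation called 12 in DKO, 837 in AKDH and 375 in AHDK uterus and 438 in DKO vas (1170). It called 10, 3 and 59 in the uterine comparisons AKDH against AKO, AHDK against DKO and DKO against AKO. It also called 484 in vas AKDH against AKO and 7 for the female difference of the AKO effect. With the small RNA covariate 9 were called in AKO uterus and 0 in DKO, AKDH and AHDK uterus. With the adipocyte covariate 347 were called in AKO vas (1865), 431 in AKDH vas and 0 in AHDK vas. Among genes with an SD above the median, 43 were called in AKO and 55 in DKO uterus, 592 in DKO vas, 238 in AKO epididymis, and, between mutants, 1 in uterus AKDH against AKO, 11 in uterus AHDK against DKO, 86 in vas AKDH against AKO and 32 in vas AHDK against DKO. Without the 3 libraries, 181 were called in vas AHDK against DKO, 263 in AKO epididymis and 3 for the female difference of the AKO effect.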
